A study of Macaca mulatta with 64 samples.

Results

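The genes examined here are the mitochondrially encoded genes of the rhesus macaque, taken as every gene whose tag positions lie on chromosome MT of the deposited table of transcript 5′ ends. They number 31 of the 13269 genes in the table, and their tags fall on 1221 of its 160389 positions. The 31 comprise 13 protein-coding genes, 2 ribosomal RNA (rRNA) genes and 16 transfer RNA (tRNA) genes. The table gives Ensembl identifiers, spans and strands on the MMUL 1.0 build but no symbols for these genes (0 of 31 matched the symbol table), so names were assigned from span, strand, length and the gene order that vertebrate mitochondrial genomes share. Of the 37 genes in that order, 6 tRNA genes were not in the table and were not analysed here.

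The mitochondrial genome is a small circle whose genes lie almost end to end on both strands. It is transcribed into long precursor RNAs that are cut at the tRNAs that punctuate them, which releases the rRNAs and the mRNAs. The encoded proteins are core subunits of the respiratory chain: ND1 to ND6 and ND4L belong to complex I, CYTB to complex III, COX1 to COX3 to complex IV, and ATP6 and ATP8 to the ATP synthase (complex V). All other subunits are made from nuclear genes. Most mitochondrial mRNAs and both rRNAs carry short 3′ poly(A) tails, but the RNAs do not carry the cap of nuclear mRNAs.

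Cap analysis of gene expression (CAGE-seq), which reads the 5′ ends of poly(A) RNA, had been run on 64 brain libraries. They covered prefrontal (PFC), posterior cingulate (PCC), temporal (TC), parietal (PC) and occipital (OC) cortex, hippocampal CA1, dentate gyrus (DG) and cerebellar cortex (CB) of macaques aged 1, 4, 10 and 20 yr. There were 8 libraries of each region, 1 per age and sex, and every library pooled a pair of animals of the same age and sex. The 8 regions of an age and sex therefore came from the same pair, called an animal group here (1F for 1-yr-old females, 20M for 20-yr-old males and so on), so age and sex were replicated by pairs of animals and not by libraries. Values are TPM, the tags at a position on a per-million scale of all tags in the library, not corrected for gene length, and a position counts as listed in a library where its TPM is above 0 (the lowest listed value is 1 TPM).

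The libraries held between 1510000 and 6095000 tags, as inferred from the spacing of their lowest values, and listed between 644 and 23670 positions each. The CB libraries held the cerebellar granule and Purkinje cell markers at a summed 2463 to 4189 TPM, against at most 771 TPM in any other library, and 5 of their 8 pyramidal cell markers were at 0 throughout. Of 4 dentate granule and CA1 markers, PROX1 and FIBCD1 were at 0 in all 8 DG libraries. PROX1 marks dentate granule cells, and none of the 4 was at 0 throughout CA1. The 4 summed to a median of 118 TPM in DG, 38.2 TPM in CA1 and 88.2 TPM in TC. The sum mixes markers of DG and CA1, so the labels of both rest on the submitters' dissection. The CB library of 10-yr-old females stood apart, with 644 positions in all, 7 mitochondrial positions and no rRNA tags; results that rest on CB are given with and without it.

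Mitochondrial tags were most abundant in PC and least abundant in CB. Over the 64 libraries they ranged from 2008 to 48743 TPM with a median of 14166 TPM. The PC libraries lay between 18919 and 48743 TPM with a median of 36521 TPM, which is 34318 ± 10428 TPM as a mean (SD, n = 8). PC was above PCC, TC, OC, CA1, DG and CB in all 8 animal groups and above PFC in 7 of 8. CB lay between 2008 and 9573 TPM with a median of 4845 TPM (4981 ± 2603 TPM as mean ± SD, n = 8), and it was below each of the other 7 regions in all 8 animal groups.

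The other regions overlapped. Their means ± SD (n = 8 each) were 17241 ± 6083 TPM in PCC, 15697 ± 5768 TPM in CA1, 15128 ± 5073 TPM in OC, 13609 ± 3471 TPM in TC, 12458 ± 5435 TPM in PFC and 12324 ± 4466 TPM in DG. Neighbours in that order differed by less than 1 SD. These sums over the members are descriptions and were not tested, and in such bulk tissue fewer cells of a type and less RNA per cell cannot be told apart.

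**Figure D1:**
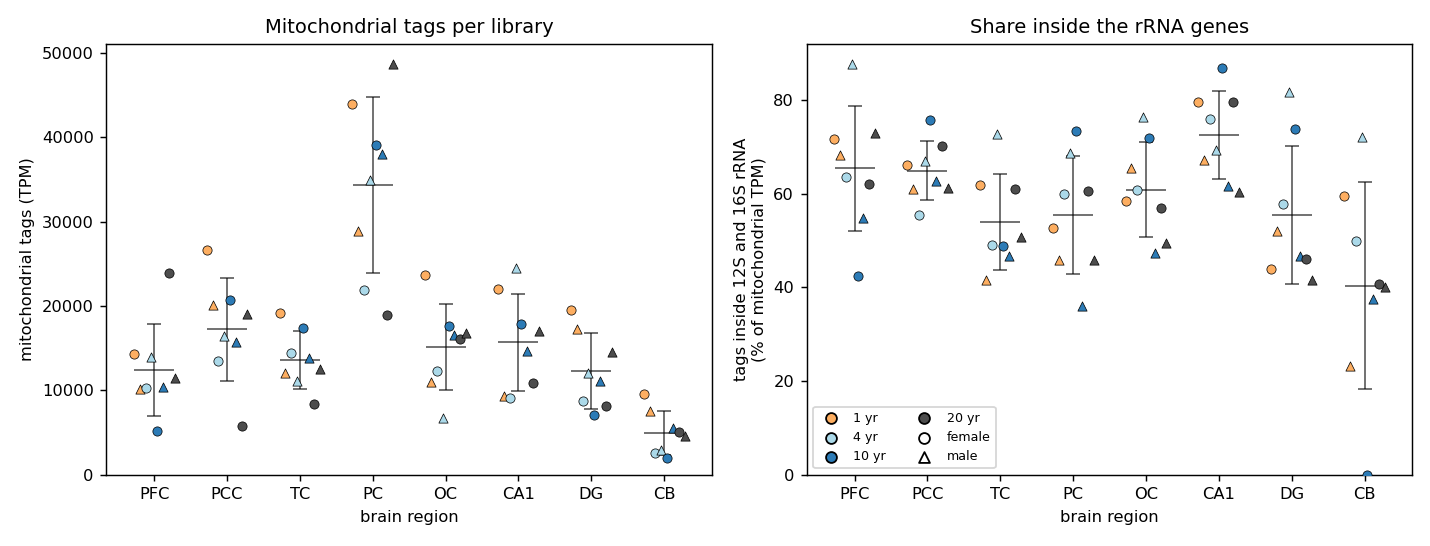
Left, summed mitochondrial TPM of each of the 64 libraries by region; right, the percentage of that sum whose tags start inside the 12S and 16S rRNA genes. Points are libraries, coloured by age and shaped by sex, and bars give the mean ± SD of 8 libraries; PC lies highest and CB lowest on the left, and the CB library of 10-yr-old females has 0% on the right.

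Most mitochondrial tags started inside the 2 rRNA genes. The gene whose span contained the 5′ end on the same strand was an rRNA for 59.4% of mitochondrial TPM, a protein-coding gene for 39.8% and a tRNA for 0.0248%, while 0.778% lay in no gene of that strand. By the gene to which the table credits each position the shares were 55.4%, 39.4% and 5.12%. The 2 assignments differed most for tRNAs. Of the 155 positions credited to tRNAs, 2 lay inside the tRNA and 153 lay 67 to 722 nt upstream of it, and these upstream positions held 99.98% of the tRNA-credited tags.

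Most of the tags credited to tRNAs started inside a longer gene upstream. The 27 positions credited to tRNA-Ile, with a mean of 387 TPM over the 64 libraries, all lay in ND1. Those credited to tRNA-Asp (81.3 TPM) lay in COX1, those of tRNA-Trp (75.0 TPM) in ND2, those of tRNA-Leu(CUN) (62.3 TPM) in ND4, those of tRNA-Gly (45.7 TPM) in COX3, those of tRNA-Val (44.9 TPM) in 12S rRNA and those of tRNA-Leu(UUR) (33 TPM) in 16S rRNA. For tRNA-Gln, a minus-strand gene, 48.8 TPM lay in no gene of its own strand, at 8 positions. Among the remaining tRNAs the means were 10.7 TPM for tRNA-Met, 8.29 TPM for tRNA-Thr, 3.30 TPM for tRNA-Glu and 3.13 TPM for tRNA-Tyr, and the other 4, tRNA-Phe, tRNA-Ser(UCN), tRNA-Lys and tRNA-Pro, were listed in at most 5 libraries each. A tRNA name in the results thus stands for tags upstream of that tRNA, most of them inside another gene.

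16S rRNA (MT:1624-3181), the large-subunit rRNA of the mitochondrial ribosome, was the most heavily tagged gene. It ranged from 0 to 28066 TPM over the 64 libraries with a median of 7487 TPM and held 53.9% of mitochondrial TPM. The small-subunit 12S rRNA (MT:608-1554) had a median of 175 TPM and a highest value of 1346 TPM. A 5′ tag is counted once for each tagged RNA end whatever the length of the gene, so these levels are shares of tagged ends. In the library preparation, poly(A) RNA was treated with a polynucleotide kinase and then digested with a 5′-phosphate-dependent exonuclease, before capped RNA was copied. Tags on the uncapped mitochondrial RNAs are those seen after that step, and its part in the levels, class shares and positions was not tested.

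Among the complex I genes, ND5 (MT:12328-14139) was the only member credited with tags in all 64 libraries. Its level ranged from 22.6 to 19964 TPM with a median of 2032 TPM. ND1 (MT:3259-4215) followed with a median of 952 TPM and was listed in 63 libraries. The others were lower: ND4 had a median of 186 TPM, ND2 of 93.2 TPM, ND6 of 31.7 TPM, and ND3 and ND4L had medians of 0 TPM, with tags in 29 and 9 libraries.

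The genes of the other complexes were tagged at lower levels. CYTB had a median of 66.5 TPM and reached 4862 TPM in the PC library of 10-yr-old females. Of complex IV, COX3 had a median of 124 TPM, COX1 of 70.3 TPM and COX2 of 29.4 TPM. ATP6 had a median of 172 TPM, most of it at the junction with COX3 described below, and ATP8 was listed in 12 libraries.

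Few of the tags lay at annotated gene starts. Each position was counted in a single containing gene, position 9198 in ATP6. So counted, positions from the first base to 20 nt into their gene held 0.0608% of mitochondrial TPM. Positions within 500 nt of the start of their gene held 76.4%, and the median tag lay 423 nt in. Within 20 nt of any gene start lay 2.01%. The exception was COX3. Position 9198, the last base of ATP6 and the first of COX3, which the table credits to ATP6, had a mean of 301 TPM and was listed in 54 libraries. Around every other start (5 nt to either side) the mean was at most 2.95 TPM, so that COX3 accounted for nearly all of the 1.96% of mitochondrial TPM that lay so close to any start.

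Within 16S rRNA the tags gathered in one stretch. The stretch from 200 to 449 nt into the gene, with 36 positions, was listed in 63 of 64 libraries at a median of 6143 TPM. The leading position of a library held a median of 82.6% of it, and 13 different positions led across libraries. The highest mean was that of position 2047 (423 nt into the gene; mean 1917 TPM, 50 libraries), followed by 1870 (246 nt; mean 1510 TPM, 19 libraries). Positions 1922, 1907, 1961, 1940 and 1895 had means of 958, 793, 754, 748 and 373 TPM but were listed in only 9, 9, 10, 5 and 2 libraries. The table reports positions after 5′ ends less than 20 bp apart had been clustered in each sample, and the part of that step in the switch from one position to another was not tested.

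ND5 had a sharper profile. Of its TPM, 77.4% lay 400 to 499 nt into the gene, nearly all at position 12765, and 12.8% lay 1000 to 1099 nt in, mainly at position 13410. Position 12765 alone held 14.8% of mitochondrial TPM, the largest share of any position, with a mean of 2322 TPM in 48 listed libraries. The 10 positions with the highest means, these 2, the 7 in 16S rRNA named above and position 3562 of ND1 (mean 372 TPM), held 64.4%. At the other extreme, 741 of the 1221 positions were listed in 1 library only. Among these, position 3867 in ND1 reached 12675 TPM in the PC library of 10-yr-old males, and ND2, to which the table credits it, had its highest value there (12812 TPM).

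**Figure D2:**
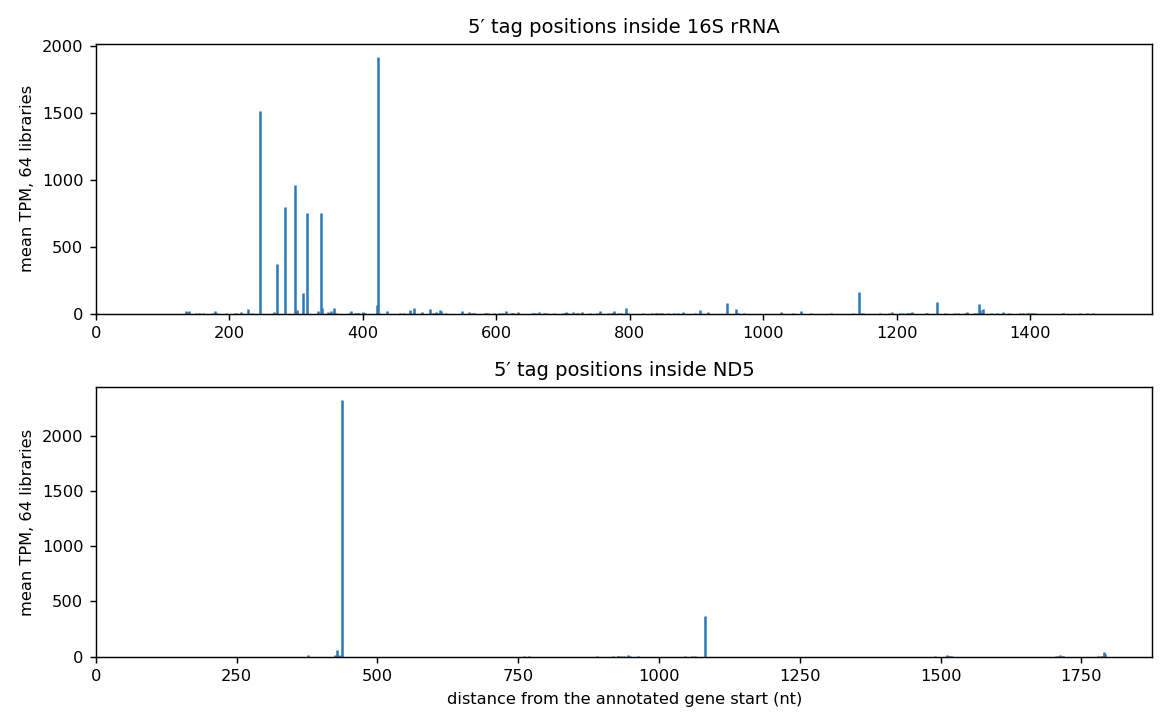
Mean TPM over 64 libraries at each 5′ position inside 16S rRNA (top) and ND5 (bottom) against the distance from the annotated gene start in nt. The 16S rRNA tags gather between 200 and 449 nt with no tags of note at the start, and ND5 has a main position at 437 nt and a lesser one at 1082 nt.

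Regions were compared with limma on log2(TPM + 1), with the animal group as a block, over all 6106 genes that had at least 1 TPM in at least 8 libraries, among them 27 of the 31 mitochondrial genes. Genes whose p, adjusted by Benjamini and Hochberg's method over all of them, was under 0.05 are called different. Differences are on the log2(TPM + 1) scale, which understates changes of low genes. The 27 passed through a filter on level, and tRNA-Phe, tRNA-Ser(UCN), tRNA-Lys and tRNA-Pro did not.

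CB was lower than the other 7 regions in 16S rRNA and ND4, and in ND5 with a call that depended on the settings. In 16S rRNA the 8 CB libraries ranged from 0 to 5325 TPM (median 1772 TPM) and all lay below the median of the 56 others, 8130 TPM (range 1545 to 28066 TPM). The difference was −3.50 ± 0.58 (SE; adjusted p 4.01e-05). ND4, a proton-pumping subunit of complex I, was listed in 5 of 8 CB libraries at a median of 12.5 TPM, against 227 TPM in the others, where all 56 libraries listed it. Its difference was −3.87 ± 0.76 (adjusted p 0.000716), although 1 CB library, that of 10-yr-old females, had 864 TPM. Without that library the differences were −2.13 for 16S rRNA (adjusted p 1.54e-05) and −4.48 for ND4 (adjusted p 0.000106).

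ND5 overlapped more between CB and the rest. It ranged from 40.2 to 4965 TPM in CB (median 1100 TPM) and from 22.6 to 19964 TPM elsewhere (median 2283 TPM). The difference of −1.82 ± 0.48 had an adjusted p of 0.0264, which became 0.20 without the replicate block and 0.145 (difference −1.44) without the CB library of 10-yr-old females. Leaving out a single animal group also ended the call for 4F, 4M, 10F, 10M and 20M. So did a pseudocount of 0.25 TPM (adjusted p 0.0665) and a mean-variance trend with a robust prior (adjusted p 0.142). ND1 (−2.12 ± 0.62, adjusted p 0.0509) and CYTB (−2.93 ± 0.87, adjusted p 0.056) did not pass.

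In all, 3 of 27 mitochondrial genes were called lower in CB and 0 higher, where 1.34% of all genes tested were called lower and 0.884% higher; at an unadjusted p under 0.05 the mitochondrial counts were 10 lower and 0 higher (8.16% and 4.8% of all genes). Of the 27, 26 had a difference below 0, with a median of −1.77 against −0.43 over all genes. The exception was tRNA-Thr at 0.98 ± 0.62. Without the CB library of 10-yr-old females 2 were called lower, 16S rRNA and ND4. By class, 2 of 13 protein-coding genes and 1 of 2 rRNAs were called lower; of the 12 tRNAs tested tRNA-Trp came nearest (−3.38 ± 1.07, adjusted p 0.0844). When each position was counted in the gene that contains it, 5 of 14 were lower (1.38% of all genes), the added ones being ND1 (−2.84 ± 0.66, adjusted p 0.00623) and 12S rRNA (−3.15 ± 0.90, adjusted p 0.0438). Counted so and without the CB library of 10-yr-old females, only 16S rRNA and ND4 of the 14 were called, and ND1 (−2.07 ± 0.64, adjusted p 0.0794), 12S rRNA (−2.74 ± 0.96, adjusted p 0.145) and ND5 (adjusted p 0.145) were not.

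**Figure D3:**
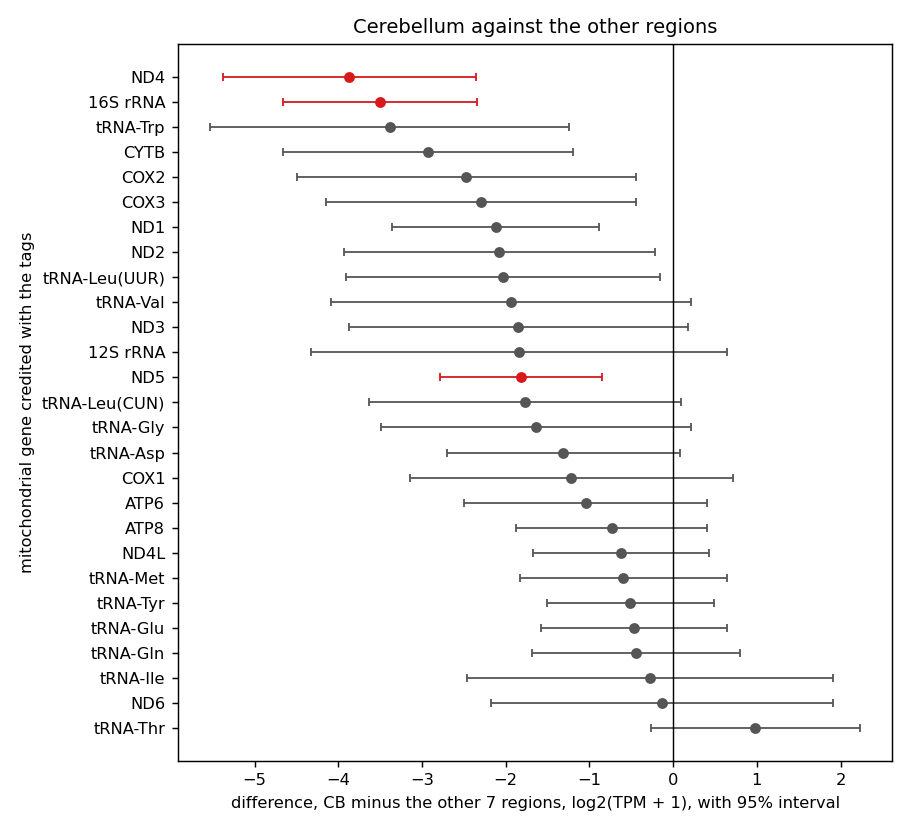
Difference between CB and the mean of the other 7 regions in log2(TPM + 1) for the 27 mitochondrial genes tested, with 95% intervals from limma (n = 8 CB and 56 other libraries); red marks adjusted p under 0.05. All but tRNA-Thr lie below 0, and 16S rRNA, ND4 and ND5 are red.

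The share of rRNA was lowest in CB and highest in CA1 on average, which was not tested. Tags inside the rRNA genes made up 40.4% ± 22 of mitochondrial TPM in CB (SD, n = 8; range 0 to 72.1%) and 72.6% ± 9.4 in CA1 (range 60.4 to 86.7%). The means of the other regions lay between 54.0% in TC and 65.4% in PFC. The ranges of CB and CA1 overlapped. Without the CB library of 10-yr-old females, which had no rRNA tags, the CB mean was 46.2% ± 16 (SD, n = 7) and the summed mitochondrial level 5406 ± 2495 TPM.

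At single positions the region comparison was fitted over 5669 positions, 66 of them mitochondrial. In CB 1 of 66 was called lower and 0 higher, against 0.194% and 0.459% of all positions; 9 were lower and 1 higher at an unadjusted p under 0.05 (2.77% and 5.03% of all positions). The called position was 13410 of ND5 (−3.25 ± 0.74, adjusted p 0.0188), listed in 3 of 8 CB libraries at up to 187 TPM, while the highest values in the other regions lay between 369 and 2688 TPM. In 1-yr-old males, 4-yr-old females and 10-yr-old females it was at 0 in every region, so the zeros of those CB libraries do not set CB apart. Without the replicate block the adjusted p of position 13410 was 0.659, and leaving out animal group 4M or 10M ended the call. Without the CB library of 10-yr-old females its adjusted p was 0.0062. The main ND5 position, 12765, gave a difference of 0.19 ± 0.70 (adjusted p 0.943), with a 95% interval from −1.21 to 1.59. The next by p, 4082 in ND1, 11161 in ND4, 1367 in 12S rRNA and 7025 in COX1, had differences of −2.30, −3.40, −2.33 and −1.79 with adjusted p between 0.156 and 0.369.

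Because neighbouring ends were clustered separately in each sample, positions were also joined across libraries where they lay under 20 nt from the next, which gave 73 mitochondrial stretches among 7479. In CB 4 of them were called lower, where 0.669% of all were. They lay in ND4 (11112 to 11268; −4.04 ± 0.85, adjusted p 0.00303), ND5 (13356 to 13410; −4.16 ± 0.92, adjusted p 0.00577) and 16S rRNA (2868 to 3046, −4.15 ± 0.93, adjusted p 0.00596, and 1891 to 2148, −2.93 ± 0.72, adjusted p 0.0172). The last of these holds the most tagged part of 16S rRNA. Without the CB library of 10-yr-old females it was not called (−1.55 ± 0.57, adjusted p 0.20), while the other 3 were, with adjusted p between 0.0139 and 0.0263, as was 11290 to 11413 in ND4 (−4.04 ± 1.02, adjusted p 0.0226).

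No mitochondrial gene was called between hippocampus (CA1 and DG) and neocortex. With limma, 0 of 27 passed in either direction, where 7.98% of all genes were called higher and 0.213% lower, and 1 was lower and 0 higher at an unadjusted p under 0.05 (1.42% and 21.5% of all genes). It was tRNA-Ile (−2.21 ± 0.85, adjusted p 0.0987). The next 4 by p were tRNA-Gln (−0.93 ± 0.49), tRNA-Val (1.43 ± 0.84), ND6 (−1.31 ± 0.80) and tRNA-Thr (−0.76 ± 0.49), with adjusted p between 0.246 and 0.363. The median difference was −0.16, against 0.55 over all genes. Counted by containing gene, 0 of 14 were called either, where 7.99% of all genes were called higher, and 1 was higher and 0 lower at an unadjusted p under 0.05.

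Among positions 2 of 66 were called higher in hippocampus and 0 lower, against 1.87% and 0.176% of all positions; 4 were higher and 2 lower at an unadjusted p under 0.05 (9.4% and 2.88% of all positions). Position 1922 in 16S rRNA differed by 4.19 ± 1.00 (adjusted p 0.0121). It was listed in 5 of 8 CA1 libraries, at up to 16112 TPM, and in 1 of 8 DG, TC, OC and CB libraries each. The test required 8 libraries, so the position entered it through CA1, where it is high, and its call is conditioned on that. Without animal group 1F or 10M it was not called (adjusted p 0.0596 and 0.0641), and without 1M, 4M or 20F it fell below the filter and was not tested. The second, 9287 in COX3, was low throughout, at most 39.1 TPM, and its difference of 1.41 ± 0.40 had an adjusted p of 0.045, which was 0.057 without the replicate block and above 0.05 without each of 1M, 4M, 10F, 10M, 20F and 20M. The next by p, 1624 in 16S rRNA, 6269 in COX1 and 4082 in ND1, had adjusted p between 0.135 and 0.345. With positions joined, 2 of 73 stretches were higher in hippocampus, where 7.14% of all were; they were 8668 to 8699 in ATP6 (2.36 ± 0.63, adjusted p 0.011) and 13431 to 13517 in ND5 (1.76 ± 0.48, adjusted p 0.0142).

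CA1 and DG, the 2 parts of the hippocampus, differed in 3 mitochondrial genes. These libraries also differed in depth, with medians of 5582500 tags in CA1 and 3247500 tags in DG, and in the number of all positions listed, medians 11309 and 3476. The oligodendrocyte markers summed to a median of 6913 TPM in CA1 and 2807 TPM in DG (6 of 9 markers found). The part of these differences in the results was not tested. Over all genes the median difference was 1.37 and 1130 genes were called higher against 52 lower; with quantile normalization the median was 0.12 and the counts were 204 and 72.

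tRNA-Ile-credited tags were at 0 in all 8 CA1 libraries and listed in 7 of 8 DG libraries, at up to 1415 TPM with a median of 282 TPM. The difference was −7.52 ± 1.44 (adjusted p 0.000229), and it is the only one called lower in CA1 (0.852% of all genes were, and 1.8% at an unadjusted p under 0.05). Its size depends on the pseudocount, since CA1 is listed at 0, and no fold is given. These tags lie inside ND1, and for ND1 as a whole, with each position counted in the gene that contains it, the difference was −0.96 ± 0.87 (adjusted p 0.447). ATP6 was higher in CA1, with 3.19 to 3025 TPM (median 355 TPM) against 0 to 477 TPM in DG (median 17.4 TPM). The difference was 3.97 ± 0.96 (adjusted p 0.00288), and over 19 alternatives it lay between 3.33 and 4.67 with adjusted p of at most 0.0354. tRNA-Leu(UUR) (3.47 ± 1.24, adjusted p 0.0416) was the second called higher, where 18.5% of all genes were; its adjusted p was 0.0549 without the replicate block, and leaving out animal group 4F, 4M, 10F, 20F or 20M also ended the call. 12S rRNA (3.15 ± 1.64) and ND3 (2.46 ± 1.34) did not pass, with adjusted p of 0.164 and 0.184.

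Most ATP6-credited tags lay at the COX3 start. Position 9198 was listed in all 8 CA1 libraries, at 1.5 to 3025 TPM with a median of 354 TPM, and in 4 of 8 DG libraries, with a median of 0.59 TPM. It was higher in CA1 by 5.44 ± 1.10 (adjusted p 0.00114). Positions 1922 (6.86 ± 1.70, adjusted p 0.0093) and 2418 (4.46 ± 1.20, adjusted p 0.0205) of 16S rRNA were also higher in CA1, which makes 3 of 66 positions, where 3.28% of all were; 0 of 66 were lower, where 0.723% were. At an unadjusted p under 0.05, 10 were higher and 2 lower (11.9% and 4.41% of all positions). Positions 1922 and 2418 were tested only because of their CA1 listings (5 of 9 and 5 of 12 libraries), so their calls are conditioned on being high there. Leaving out 1F or 10M ended the call of 1922 (adjusted p 0.0722 and 0.056) and leaving out 1M, 4M or 20F took it out of the test, while leaving out 4M, 10F, 20F or 20M ended the call of 2418, which was at 0 in all 8 DG libraries. Position 1870, the second most tagged of 16S rRNA, was at 0 in all 8 CA1 libraries and listed in 5 of 8 DG libraries (difference −6.58 ± 2.67, adjusted p 0.181). 16S rRNA as a whole ranged from 5727 to 16498 TPM in CA1 and from 3298 to 8907 TPM in DG, and its difference of 0.84 ± 0.77 did not pass (adjusted p 0.451). With positions joined, 4 of 73 stretches were higher in CA1 and 2 lower (13.7% and 1.63% of all); the higher ones lay in ATP6 (9197 to 9215 and 8668 to 8699) and ND5 (13614 to 13714 and 12702 to 12723), with adjusted p between 0.000612 and 0.0327, and the lower ones were 3746 to 3833, inside ND1 and credited to tRNA-Ile (−7.44 ± 1.45, adjusted p 0.000273), and 1755 to 1870 in 16S rRNA (−8.69 ± 2.28, adjusted p 0.00634).

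For ages, the 8 regions of an animal group were averaged first, which left 2 values at each age, and sex was a covariate. Between 20 and 1 yr 0 of 27 mitochondrial genes were called by limma, as were 0% of all genes. At an unadjusted p under 0.05, 8 of 27 were lower at 20 yr and 0 higher, against 6.75% and 0.884% of all genes. The 5 with the smallest p were tRNA-Gly (−4.36 ± 0.85, adjusted p 0.455), tRNA-Gln (−5.72 ± 1.17, adjusted p 0.455), tRNA-Asp (−6.12 ± 1.56, adjusted p 0.604), 12S rRNA (−2.86 ± 0.89, adjusted p 0.61) and ND6 (−3.00 ± 1.07, adjusted p 0.61). With a mean-variance trend and a robust prior tRNA-Gln and tRNA-Asp were called lower.

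Positions gave 0 of 66 called between 20 and 1 yr (0% of all), with 9 lower and 2 higher at an unadjusted p under 0.05, where 4.04% and 1.29% of all positions were. The smallest p belonged to 4829 on the strand opposite ND2 (−5.56 ± 1.06, adjusted p 0.464) and 3562 in ND1 (7.11 ± 1.70, adjusted p 0.656), followed by 14524 in ND6 (−3.13 ± 0.79), 902 in 12S rRNA (−3.21 ± 0.82) and 7025 in COX1 (−6.19 ± 1.60). Between females and males limma called 0 of 27 mitochondrial genes, as it did 0% of all genes, with 3 lower and 0 higher in females at an unadjusted p under 0.05 (4.42% and 0.835% of all genes). The 5 with the smallest p were COX1 (−2.33 ± 0.54), ND3 (−1.80 ± 0.59), ND1 (−1.74 ± 0.69), tRNA-Ile (−2.73 ± 1.31) and tRNA-Trp (−1.26 ± 0.74), all with adjusted p of at least 0.924.

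Single mitochondrial positions differed among the animal groups, with some present in every region of one group and missing from every region of another. A moderated F test over the 8 animal groups, with the region as a block, was added after the data had been seen. It called 15 of 66 mitochondrial positions, where 0.529% of all positions were called (30 of 5669). Positions that passed the filter only through groups where they are high had to differ, so the count is a description. For 6 of the 15 fewer than 8 libraries listed the position outside its 2 leading groups: 9259 and 9371 in COX3, 14581 in ND6, 15352 in CYTB, 4801 in ND2 and 13707 in ND5. The 6 smallest p among all 5669 positions were mitochondrial. Because the 8 libraries of a group share a pair of animals, this test measures whether the 8 regions of a pair resemble each other, and age, sex and the pair cannot be told apart in it.

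The main ND5 position, 12765, was present in all 8 regions of 5 groups and nearly absent in 3. Its medians were 4102 TPM in 1-yr-old females (lowest 889 TPM), 3201 TPM in 1-yr-old males (lowest 515 TPM), 2588 TPM in 4-yr-old females (lowest 629 TPM), 2513 TPM in 10-yr-old males (lowest 587 TPM) and 3321 TPM in 20-yr-old males (lowest 951 TPM). In 4-yr-old males, 10-yr-old females and 20-yr-old females it was listed in 3, 3 and 2 of 8 regions, with medians of 0 and highest values of 11.3, 968 and 192 TPM. The 2 sexes thus fell on opposite sides at 4, 10 and 20 yr, and not in the same direction. The F value was 60.4 (adjusted p 1.44e-19), and after positions less than 20 nt apart had been joined (12752 to 12765) it was 17.6 (adjusted p 7.55e-09).

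The second ND5 position, 13410, divided the groups differently. It was listed in 8 of 8 regions in 1-yr-old females, 4-yr-old males and 20-yr-old males, in 7 in 10-yr-old males and in 6 in 20-yr-old females, with medians between 322 and 897 TPM. It was at 0 in all 24 libraries of 1-yr-old males, 4-yr-old females and 10-yr-old females (adjusted p 3.59e-15). In 10-yr-old females both positions were thus largely missing. ND5 had a median of 536 TPM there, 619 TPM in 4-yr-old males, 732 TPM in 20-yr-old females and 3215 TPM in 10-yr-old males. In the remaining groups the ND5 medians lay between 3142 and 5040 TPM. The PCC library of 10-yr-old females had 3626 TPM of ND5 with both positions at 0.

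ND1 position 3562 was highest in 10-yr-old males and both 20-yr-old groups. Its medians were 816 TPM in 10-yr-old males, 1285 TPM in 20-yr-old females, 421 TPM in 20-yr-old males and 77.4 TPM in 4-yr-old males, each listed in 7 of 8 regions. It was listed in 5 regions of 1-yr-old males (median 2.49 TPM, highest 117 TPM) and in 4 of 4-yr-old females (median 0.96 TPM, highest 31.2 TPM). In 10-yr-old females it was listed in 2 regions at up to 5.12 TPM and in 1-yr-old females in none (adjusted p 2.04e-07). CYTB position 15242 had the reverse pattern at 10 yr. It was listed in 7 of 8 regions of 10-yr-old females with a median of 823 TPM and a highest value of 4646 TPM, in 6 to 8 regions of the 1- and 4-yr-old groups at medians between 1.84 and 43.0 TPM, and in none of the 24 libraries of 10-yr-old males and both 20-yr-old groups (adjusted p 2.85e-10).

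COX1 position 7025, credited to tRNA-Asp, was listed in all regions of 1-yr-old females (median 208 TPM) and in none of 10-yr-old or 20-yr-old males (adjusted p 2.85e-10). The COX3 start, position 9198, was listed in 5 to 8 regions of every group, but its median was 1.34 TPM in 10-yr-old males, with a highest value of 19.4 TPM, and between 30.6 and 551 TPM in the others (adjusted p 0.000171; 0.262 without 10-yr-old males). The remaining called positions lay in 16S rRNA (2768), ND1 (4082), COX3 (9259 and 9371), ND6 (14581), CYTB (15352), ND2 (4801) and ND5 (13707), with adjusted p between 4.09e-05 and 0.0442, and on the strand opposite ND2 (4829). Of the 11 libraries that listed 14581, 6 were of 1-yr-old males, and all 9 that listed 15352 and 10 of the 11 that listed 9259 were of 4-yr-old females and 20-yr-old males. Of these positions, 4801 and 13707 were not called under 12 of 20 and 14 of 17 alternatives.

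**Figure D4:**
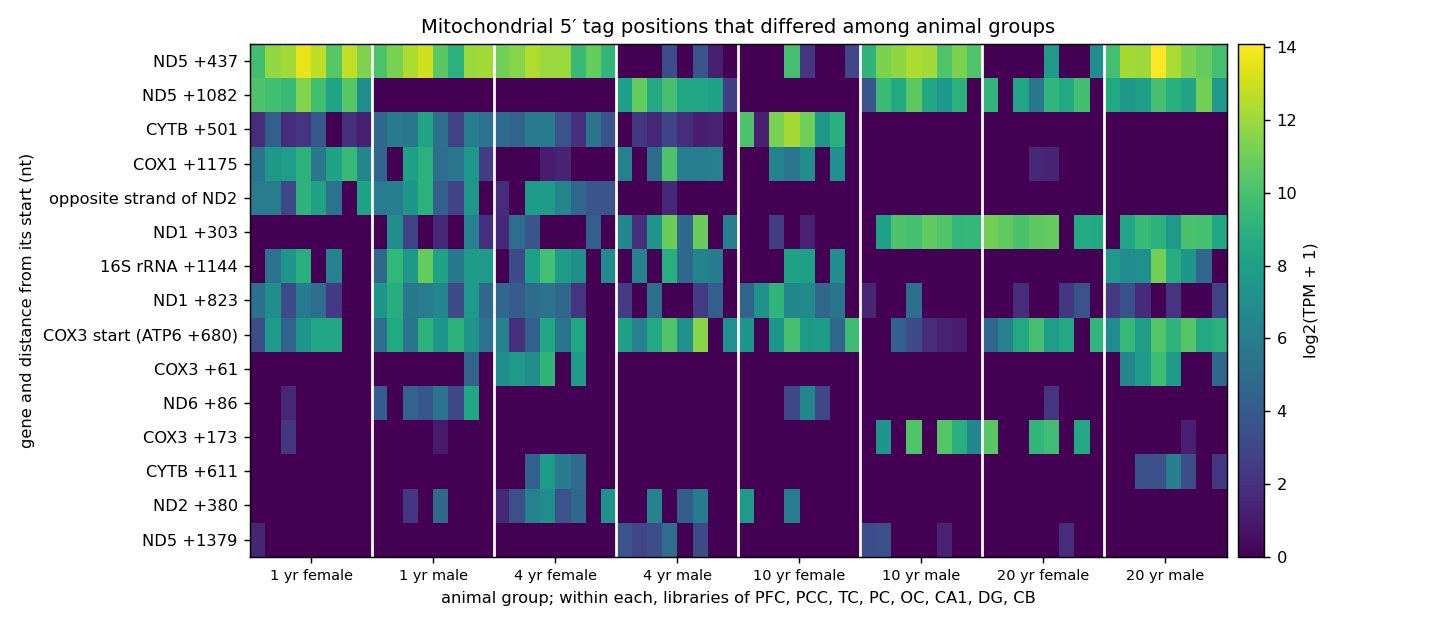
The 15 mitochondrial positions called different among animal groups (rows, named by gene and distance from its start in nt, or by the gene opposite) in the 64 libraries (columns), which are ordered by animal group and within it by region; colour is log2(TPM + 1). ND5 +437 is present across all regions of 5 groups and missing from most regions of 4-yr-old males, 10-yr-old females and 20-yr-old females.

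Among the gene sums, 8 of 27 mitochondrial genes differed among animal groups, where 0.262% of all genes did (16 of 6106). They were tRNA-Gln, tRNA-Asp, ATP6, ND5, tRNA-Ile, tRNA-Leu(CUN), ND1 and tRNA-Gly, with adjusted p from 1.57e-10 to 0.0273. 16S rRNA (F 1.22, adjusted p 0.804) and 12S rRNA (F 1.86, adjusted p 0.678) did not. Genes that passed the filter only through groups where they are high had to differ, so this count too is a description. tRNA-Gln, with the smallest p, was listed in 7, 8 and 8 regions of 1F, 1M and 4F. In every other group it was listed in at most 1 region. When each position was counted in the gene that contains it, 2 of 14 were called, ND5 and ND1, where 0.164% of all genes were. Without animal group 10F, 5 genes were called. ATP6 was lost without 10M (adjusted p 0.415), and ND1 (0.407) and tRNA-Ile (0.142) without 10F. ND1 was also lost without the PFC, PCC, TC or CB libraries (adjusted p 0.0793 to 0.142), and tRNA-Gly under 12 of 22 alternatives, among them without animal group 1M, 10F, 20F or 20M.

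As a description, each library was compared with the others by its pattern over the 66 positions after region means had been removed. The mean correlation was 0.247 over the 224 pairs of libraries from the same animal group and −0.0352 over the 1568 pairs from different groups. For 55 of 64 libraries the closest group was their own, with 4 of 8 in 4-yr-old males and in 20-yr-old females and 7 or 8 in the rest. For the 43 positions outside 16S rRNA these values were 0.381 and 58 of 64, for the 23 inside 16S rRNA 0.052 and 17 of 64, and for the 5603 nuclear positions 0.00972 and 25 of 64. The points share libraries, so no test was made. The sets were not matched for tag level or for the number of positions. The values therefore do not show that likeness within an animal group is particular to mitochondrial positions.

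Tags on the minus strand, which in the table carries ND6 and 5 of the tRNA genes, were few, and their medians were lower in the older groups. They lay on 39 positions and made up 0.961% of mitochondrial TPM, 63.2% of it in ND6. The median summed level was 329 TPM at 1 yr (range 36.6 to 929 TPM), 84.2 TPM at 4 yr, 8.02 TPM at 10 yr and 14 TPM at 20 yr (n = 16 libraries each). All 16 libraries of 1-yr-olds had such tags, and 5 of 16 at 10 yr and 4 of 16 at 20 yr had none. The 1-yr-old library lay above the 20-yr-old one of the same region and sex in 15 of 16 pairs, and in 13 of 16 as a share of mitochondrial TPM.

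These libraries come from 2 animal groups per age, so the order of ages rests on 8 pairs of animals, and the sum over members was not tested. The number of mitochondrial positions listed moved with it, with medians of 61, 50, 43 and 38 at 1, 4, 10 and 20 yr, as did the number of all positions (4812, 4026, 4020.5 and 3609.5), and their part in the pattern was not tested. The minus-strand position with the smallest p in the F test, and picked for that, was 4829, opposite ND2 and credited to tRNA-Gln. It was listed in 7 of 8 regions of 1-yr-old females, 1-yr-old males and 4-yr-old females (medians 60.5, 62.8 and 18.2 TPM), in 1 region of 4-yr-old males at 1.96 TPM, and in none of the 32 libraries of 10- and 20-yr-olds (F 18.4, adjusted p 3.03e-09). Of the 22 libraries that listed it, 21 were of its 3 leading groups. The position thus entered the F test through groups where it is high, and its call is conditioned on that. CAGE tags keep their strand, so these tags are not counted in ND2.

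**Figure D5:**
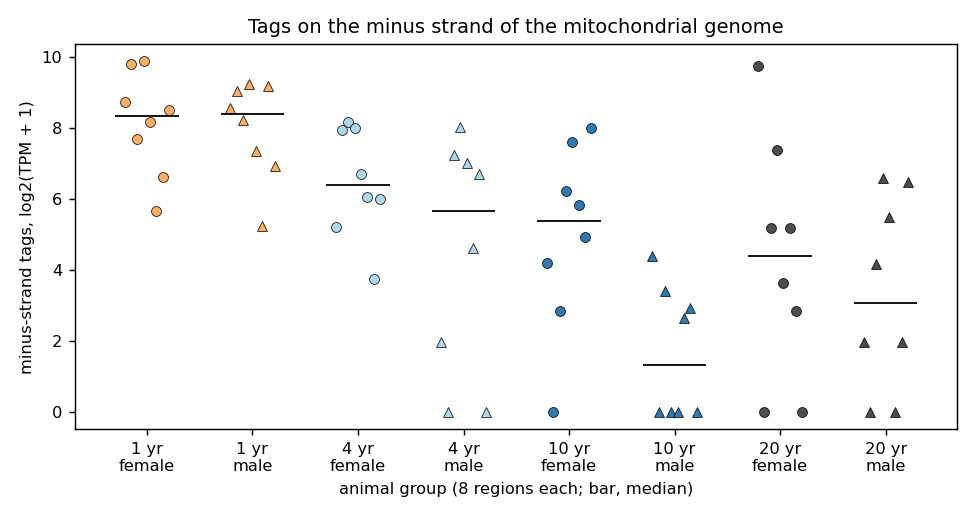
Summed TPM on the minus strand of the mitochondrial genome, as log2(TPM + 1), for each library by animal group; bars are medians of 8 regions. The 1-yr-old groups lie highest, with every library above 0, and 10-yr-old males lie lowest.

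The nuclear genes for the same machinery were called in CB at about the share of all genes. Of 83 tested genes in 7 lists (complexes I to V, mitochondrial ribosome and mitochondrial DNA expression), 1 was called lower in CB and 0 higher by limma, where 1.34% and 0.884% of all genes were. At an unadjusted p under 0.05 the counts were 8 and 2 (8.16% and 4.8% of all genes), with a median difference of −0.33 against −0.43 over all genes. It was MRPS9, a small-subunit protein of the mitochondrial ribosome (−3.20 ± 0.85, adjusted p 0.0272), at most 4.47 TPM in CB and with a median of 14.3 TPM elsewhere. Without the CB library of 10-yr-old females it was not called (−3.18 ± 0.92, adjusted p 0.0539). The complex I subunits NDUFB4 (−3.70 ± 1.09, adjusted p 0.0535) and NDUFB1 (−1.89 ± 0.57, adjusted p 0.0663) did not pass, while NDUFB9 was at 2.33 ± 1.18 (adjusted p 0.397). SDHB of complex II (−2.67), UQCRB of complex III (−2.68), COX5A of complex IV (−2.90) and ATP5PF of complex V (−2.16) had the smallest p of their lists, with adjusted p between 0.143 and 0.306. In the mitochondrial ribosome list MRPS21 (−1.87 ± 0.74, adjusted p 0.226) followed MRPS9, and MRPL4 (1.49 ± 0.60, adjusted p 0.241) and MRPS34 (2.02 ± 0.87, adjusted p 0.287) lay above 0, as did ATP5MC2 of complex V (1.28 ± 0.72, adjusted p 0.464).

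Between CA1 and DG 10 of the 83 were called higher and 2 lower, where 18.5% of all genes were called higher and 0.852% lower, and the median difference was 0.80 against 1.37 over all genes. The lower ones were ATP5MC2 of complex V (−2.70 ± 0.96, adjusted p 0.0399) and NDUFB9 of complex I (−4.26 ± 1.56, adjusted p 0.0469). Those called higher included TFAM, which packages and transcribes mitochondrial DNA (1.81 ± 0.60, adjusted p 0.0298). The 3 were chosen after their values were seen. Between hippocampus and neocortex limma called 0 of the 83 (7.98% of all genes were called higher and 0.213% lower), and 7 were higher and 6 lower at an unadjusted p under 0.05, where 21.5% and 1.42% of all genes were. Between 20 and 1 yr 0 of the 83 were called (0% of all genes), and 1 was higher and 4 lower at an unadjusted p under 0.05 (0.884% and 6.75% of all genes). Between females and males 0 were called (0% of all genes), and 1 was higher and 3 lower in females at that p (0.835% and 4.42% of all genes).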

How the data were processed

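The authors aligned CAGE tags to MMUL 1.0 with TopHat2, allowing 2 mismatches and keeping tags with 1 alignment, and joined 5′ ends less than 20 bp apart in each sample. Tags shared with nuclear copies of mitochondrial DNA were thereby discarded, and the part of this in the values was not tested. The deposited values are RPM (called TPM), tags on a per-million scale as the authors computed them per library. Depth was inferred from the spacing of values of at most 12 TPM (tolerance 0.0101 TPM). TPM was summed per gene and tested as log2(TPM + 1) with limma 3.58.1 in R 4.3.3, Benjamini-Hochberg adjusted over all genes or positions that reached 1 TPM in 8 or more libraries; code was tested on simulated data. Region comparisons had the animal group as a block, because the study took all regions from the same animals; deviations correlated by 0.0113 on average within animal groups (−0.0637 to 0.206) and −0.0016 between them. In the region comparisons p-values measure the spread between pooled libraries, and for age and sex the spread between animal-group means. The F test sets differences among animal groups against the remaining spread between libraries. Named genes and positions are those called in a comparison and otherwise the 5 with the smallest p, and up to 4 per nuclear list. The members and lists were chosen with earlier results of these data known; the F test over animal groups, counting by the containing gene, and leaving out the CB library of 10-yr-old females or all libraries of a region were added after seeing the data. Alternatives changed the pseudocount, filter, scaling, block, variance prior, joining and libraries. No mitochondrial sequence was used here.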

Additional observations from a re-analysis of the deposited data

Results flagged for a closer look

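In 9 of 112 groups of 8 libraries, 1 library stood apart from the others by a gap above 0.526 of the group's range. Such a gap marks about 1 in 20 groups of independent, normally distributed values. TPM values include zeros and the same libraries recur across groups, so that rate does not apply here and the count is a description. In mitochondrial TPM the PC library was far above the other regions of 10-yr-old males (38084 TPM) and of 20-yr-old males (48743 TPM). Of the 38084 TPM, 12675 TPM lay at position 3867 in ND1, which no other library listed. The CB library of 20-yr-old females had 28.4% of its mitochondrial TPM credited to tRNAs, and the DG library of 1-yr-old males listed 71 mitochondrial positions. Among genes, 16S rRNA stood at 5325 TPM in the CB library of 1-yr-old females, ND4 at 2166 TPM in the TC library and at 864 TPM in the CB library of 10-yr-old females, ND5 at 9251 TPM in the DG library of 1-yr-old females, and ATP6 at 3025 TPM in the CA1 library of 4-yr-old males. The cause was not tested for any of them.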

How the results depend on the processing

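No result reversed under any alternative. The count of mitochondrial genes lower in CB, 3, became 2 without the CB library of 10-yr-old females, 5 with values scaled to the listed TPM, 6 with quantile normalization and 5 by containing gene. Genes higher in CA1 than in DG fell from 2 to 1 with no filter, with quantile normalization, without the replicate block and by containing gene; the 1 lower gene became 0 by containing gene, and the 8 genes that differed among animal groups became 2. For 20 against 1 yr, 2 genes were lower with the variance trend and robust prior. With positions joined, 4 were lower in CB and 2 lower in CA1 than in DG, with and without the CB library of 10-yr-old females; without it the counts by containing gene were 2 lower in CB, and 1 higher and 0 lower in CA1. Positions higher in hippocampus fell from 2 to 1 with a pseudocount of 0.25 TPM and with values scaled to the listed TPM. By containing gene tRNAs held 0.0263% of mitochondrial TPM as a mean of the 64 library percentages, and 0.0248% of the pooled TPM. Without position 12765, the most tagged one, the rRNA share rose to 65.2% in TC and 66.6% in OC, since that position lies in ND5. The cause of the other changes was not tested except for counting by containing gene, which moves the tRNA-credited tags to other genes.

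Without the replicate block, which pairs regions of the same animals, 2 genes and 0 positions were lower in CB and 1 position was higher in hippocampus; besides the CA1 genes given above, it changed no other count by more than 1.5 times.

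With each animal group left out in turn, 2 to 3 genes and 0 to 1 positions were lower in CB, 1 to 2 genes and 1 to 3 positions were higher in CA1 and 1 gene lower, 0 to 2 positions were higher in hippocampus, and 5 to 8 genes and 11 to 14 positions differed among animal groups; the other counts stayed at 0. Named genes and positions kept their call in 221 values and lost it in 44 with an animal group left out, and in 338 and 45 over the other alternatives. Depth limits positions near the listing minimum of 1 TPM.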
